A study of Mus musculus with 48 samples.

Results

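Gene expression was compared here between fed wild-type mice on a high fat diet (HFD) and on a control diet. The samples are the 12 livers of the groups LWT_HFD_FED and LWT_CTRL_FED, of 48 livers measured in all, and each gene detected in the series was compared between them. LWT stands in the labels for p110α hep+/+ mice, which carry floxed alleles of p110α, the catalytic subunit of phosphatidylinositol 3-kinase α (PI3Kα), but no albumin-Cre transgene. All mice were male, and the p110α hep+/+ mice were littermates of hepatocyte-specific knockouts (p110α hep-/-, LKO), in which albumin-Cre drives the deletion. From 12 weeks of age they received either HFD, with 60% of calories from fat (D12492), or the control diet D12450J (CTRL) for 12 weeks. The 6 HFD and 6 CTRL mice were fed ad libitum and killed at Zeitgeber time 16, in the dark phase, when mice eat. The same diets were also compared in LWT mice fasted for 24 h (LWT_HFD_FASTED and LWT_CTRL_FASTED) and in fed LKO mice (LKO_HFD_FED and LKO_CTRL_FED), with 6 mice per group. Each mouse gave 1 one-colour Agilent array.

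As background, a liver exposed to HFD takes up and stores fat, and fatty acids are ligands of PPARα and PPARγ, nuclear receptors that switch on genes of fatty acid oxidation and of lipid droplets. Feeding raises insulin, which acts through PI3K and AKT to keep the transcription factor FOXO1 out of the nucleus, so that its targets *Igfbp1*, *Pck1* and *G6pc* are low. The mouse liver is also strongly dimorphic: pulses of growth hormone in males act through STAT5 to keep male-biased genes high and female-biased genes low.

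Levels are normalized log2 signals of a probe, which can be compared between mice but not between genes. The brightest probe stood for a gene, which was called at a Benjamini-Hochberg adjusted p of at most 0.05 in limma together with a fold change over 1.5. By this rule 766 of 20486 genes (3.74%) were called, 541 higher (2.64%) and 225 lower (1.10%) on HFD. Each of 6 slides held 1 HFD and 1 CTRL array of these mice, and 680 of the called genes changed in the same direction on all 6 slides. The arrays were washed in 2 batches of 3 slides, and all 766 had the same sign in both. The 766 were chosen on these same arrays, so agreement between slides or batches is largely built in and is no independent support. By adjusted p alone 24.0% of genes passed, and the HFD and CTRL mice did not overlap for 9.51% of genes. Probes that exceeded the background clearly made up 54.1% ± 1.83 of all on HFD and 52.6% ± 1.92 on CTRL diet (SD, n = 6, exact two-sided permutation test, p = 0.19). Log2 fold changes come from a fit that weights the arrays, so they can differ slightly from the difference of the plain means. In whole liver, fewer cells of a type and less RNA per cell cannot be told apart.

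Promoters of 4 genes are shown first. *Cyp2b9* and *Cyp2b13*, which encode female-biased cytochromes P450, are shown because they were the 2 genes with the largest rise and their promoters are nearly the same. Over 300 bases, which reach from upstream of the gene to just past its start (RefSeq, GRCm38.p6, plus strand), these were 99.3% identical. They lie at chr7:26173159-26173458 and chr7:26061245-26061544, and capitals mark the 2 bases that differ.
Cyp2b9: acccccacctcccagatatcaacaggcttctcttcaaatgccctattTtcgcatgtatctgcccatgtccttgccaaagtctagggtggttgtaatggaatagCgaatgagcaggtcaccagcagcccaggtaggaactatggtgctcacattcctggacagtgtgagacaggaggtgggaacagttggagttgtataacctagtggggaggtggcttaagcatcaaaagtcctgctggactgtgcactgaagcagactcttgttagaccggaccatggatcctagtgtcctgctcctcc
Cyp2b13: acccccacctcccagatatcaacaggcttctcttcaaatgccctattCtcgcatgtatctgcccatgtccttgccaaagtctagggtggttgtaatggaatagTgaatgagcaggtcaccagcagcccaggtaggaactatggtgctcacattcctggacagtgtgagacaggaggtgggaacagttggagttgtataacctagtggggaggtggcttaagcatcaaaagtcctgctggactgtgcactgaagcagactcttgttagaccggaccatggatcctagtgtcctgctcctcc
The promoter of *Cyp2b10*, which encodes the P450 induced by phenobarbital, was 73.2% identical to each of them. The 60-base probes of these 3 genes shared runs of only 6 to 10 bases. This compares the probes with each other and does not show whether a probe also reads the transcript of another of the 3 genes. *Cdc20* and *Mki67*, genes of dividing cells, are shown because most cell cycle genes rose. Their promoters (RefSeq, GRCm38.p6, minus strand) lie at chr4:118437294-118437593 and chr7:135716330-135716629, and capitals mark CCAAT, the core of the NF-Y box, or its reverse complement ATTGG.
Cdc20: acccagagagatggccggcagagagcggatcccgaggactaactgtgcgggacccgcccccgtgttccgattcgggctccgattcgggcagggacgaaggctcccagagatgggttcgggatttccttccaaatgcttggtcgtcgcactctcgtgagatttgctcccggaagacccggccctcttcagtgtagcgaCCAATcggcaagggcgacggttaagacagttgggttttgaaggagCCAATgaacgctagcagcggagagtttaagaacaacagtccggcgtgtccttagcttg
Mki67: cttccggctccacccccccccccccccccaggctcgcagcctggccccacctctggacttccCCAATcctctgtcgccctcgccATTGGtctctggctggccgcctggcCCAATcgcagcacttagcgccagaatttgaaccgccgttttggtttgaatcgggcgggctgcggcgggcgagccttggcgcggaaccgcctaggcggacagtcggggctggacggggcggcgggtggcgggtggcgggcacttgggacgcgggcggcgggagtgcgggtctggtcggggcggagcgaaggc
CCAAT or ATTGG was present in 19 of the 26 promoters that could be matched to measured cell cycle genes, and in 37.9% of all 27025 promoters of this length. A match is a stretch of letters and not a site shown to be in use.

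Sex-biased genes held the largest changes in both directions. Of 28 measured female-biased genes, 14 rose and 1 fell, and the median log2 fold change was 0.57, against -0.01 over all genes. Some of these, such as *Hao2* and *Slc22a29*, met the filter on dim probes in HFD but not in CTRL mice. Among the 17 that were above background on all 12 arrays, 9 were called and the median was 0.38, and with the scanner's processed signal the median over the list was 0.96. Of 23 measured male-biased genes that depend on growth hormone and STAT5, 11 fell and 0 rose. All 23 had a negative log2 fold change, with a median of -0.56. The median was -0.29 with 7 called within the second washing batch of the arrays, and -0.37 with 10 called without CTRL replicates 2 and 6. Some female-biased genes, such as *Cd36*, *Cyp4a14* and *Vldlr*, also belong to the lipid lists described below. The member that fell was *Ntrk2*, a neurotrophin receptor, with a log2 fold change of -0.85 (adjusted p = 0.017), and it is named after its value was seen.

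*Cyp2b13*, read by a probe at chr7:26880905-26880964 (mm9, as are all probe positions here), had log2 signals of 5.45 to 7.64 (median 6.07) on CTRL diet and 10.93 to 12.24 (median 11.78) on HFD. Every HFD mouse lay above every CTRL mouse. The rise was 47.8-fold (log2 fold change 5.58, standard error 0.62, adjusted p = 8.90e-09), from a signal that was well above background on 5 of 6 CTRL arrays. *Cyp2b9* had signals of 8.87 to 14.01 (median 11.45) on CTRL diet and 15.04 to 15.45 (median 15.18) on HFD. CTRL mice thus differed widely among themselves and HFD mice were alike, with no overlap. The rise of *Cyp2b9* was 13.5-fold (log2 fold change 3.75, standard error 0.54, adjusted p = 1.56e-06). *Cyp2b10* had signals of 8.97 to 13.50 (median 11.05) on CTRL diet and 14.51 to 14.83 (median 14.63) on HFD and the same pattern (log2 fold change 3.53, standard error 0.52, adjusted p = 2.24e-06). Its 2 probes gave log2 fold changes of 0.90 and 3.53, however, and whether the brighter one also reads *Cyp2b9* was not tested.

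*Slc22a27* and *Slc22a29*, female-biased organic anion transporters on chromosome 19, rose by 2.97 and 2.86 on the log2 scale (adjusted p = 7.77e-12 for both). *Hao2*, a peroxisomal hydroxyacid oxidase, rose by 2.64 (adjusted p = 5.04e-09). On CTRL diet these were dim, since *Slc22a29* and *Hao2* were well above background on 4 of 6 arrays, so that the size of the change is not exact. Over the alternatives it was 2.426 to 4.002 for *Slc22a29* and 2.13 to 3.89 for *Hao2*. *Vldlr*, the receptor for very low density lipoproteins, rose by 1.75 (adjusted p = 1.25e-06), and its groups did not overlap.

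The deepest fall was that of *Hsd3b5* (chr3:98422576-98422635), a male-specific steroid dehydrogenase. It had signals of 11.58 to 13.88 (median 12.43) on CTRL diet and 5.46 to 7.25 (median 5.93) on HFD. The groups were far apart, and the fall was 96.4-fold (log2 fold change -6.59, standard error 0.70, adjusted p = 3.61e-09). The probe was well above background on all 12 arrays, but on HFD it was dim. Over the alternatives the log2 fold change was -7.62 to -6.07, and it was -6.07 within the second washing batch. *Slco1a1*, a male-biased organic anion transporter, had signals of 11.21 to 12.23 (median 11.81) on CTRL diet and 7.78 to 10.21 (median 9.46) on HFD, again with no overlap (log2 fold change -2.51, standard error 0.44, adjusted p = 3.59e-05). *Cyp4a12a* and *Cyp4a12b*, which encode androgen-dependent fatty acid hydroxylases, gave log2 fold changes of -2.67 and -2.68 (adjusted p = 1.54e-07 and 1.76e-07). For both, only HFD replicate 3 and CTRL replicate 4 overlapped. These are close paralogs and may share transcripts on the probes, which have a common run of 6 bases at most.

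*C6*, a complement component with male-biased expression, fell by 1.42 (adjusted p = 5.68e-06), and *Cyp7b1*, an oxysterol hydroxylase, fell by 1.28 (adjusted p = 0.00015). *Socs2*, a feedback inhibitor and direct target of STAT5, fell by 1.17 (adjusted p = 0.0198), and it is named after its value was seen. *Bcl6*, a male-biased repressor, ranged from 9.35 to 11.76 on CTRL diet and from 9.92 to 12.05 on HFD, so that the groups overlapped and it was not called (log2 fold change 0.65, standard error 0.61, adjusted p = 0.483). *Cux2*, a female-biased repressor, was not well above background on any HFD or CTRL array. All 12 measured genes of major urinary proteins, pheromone carriers made by male liver, had a negative log2 fold change, with a median of -0.25, and 3 were called. Among them *Mup11* gave -1.16 (adjusted p = 0.000617) and *Mup5* gave -0.83 (adjusted p = 0.00222). The members of this family are nearly identical, and a probe may read several of them.

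For several of these genes the same mouse was the extreme one of its diet. Among HFD mice, replicate 3 had the highest *Hsd3b5*, *Slco1a1*, *Cyp4a12a*, *Mup11* and *Cyp7b1* and the lowest *Cyp2b13*, *Slc22a27*, *Hao2* and *Vldlr*. Among CTRL mice, replicate 4 had the lowest *Hsd3b5*, *Slco1a1*, *Cyp4a12a*, *Mup11* and *Cyp7b1* and the highest *Cyp2b13*, *Cyp2b9*, *Slc22a27* and *Vldlr*. For the genes listed, each was thus the mouse of its diet that lay nearest to the other diet, whereas the lowest *Cyp2b9* on HFD was that of replicate 1. Without HFD replicate 3 the log2 fold change of *Hsd3b5* was -6.78, and without CTRL replicate 4 that of *Cyp2b9* was 4.21.

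**Figure D1:**
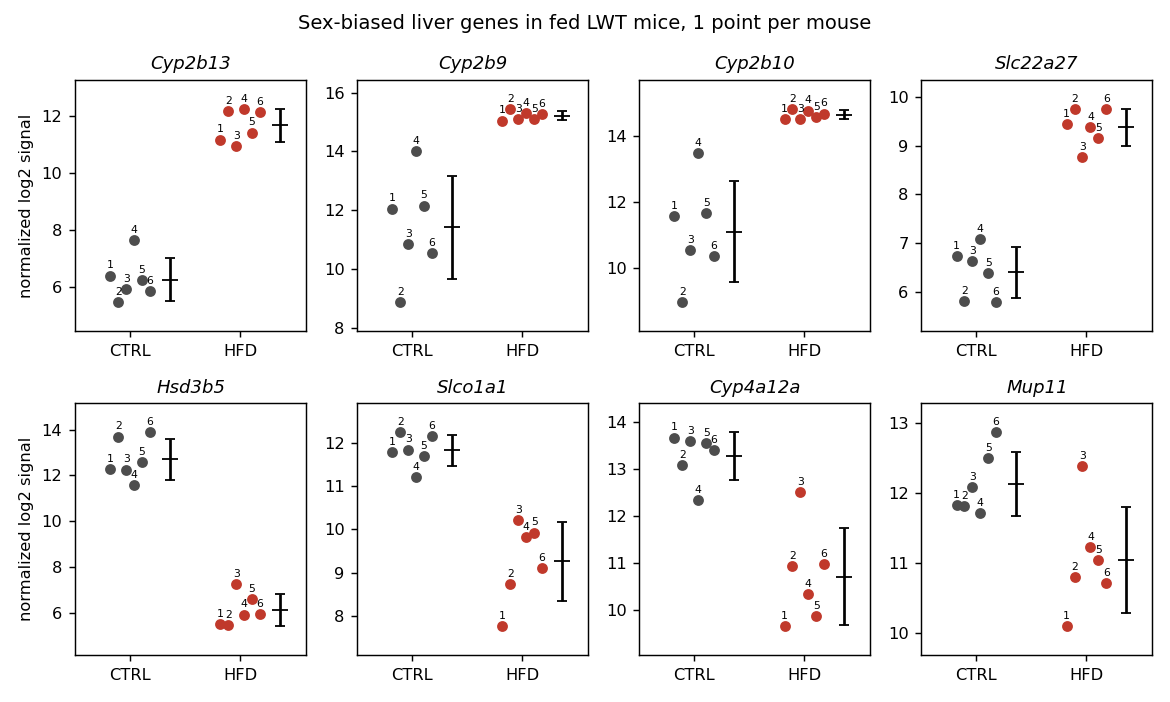
Normalized log2 signal of 8 sex-biased genes in each of 6 CTRL and 6 HFD fed LWT mice (points, numbered by replicate), with the group mean and SD to their right. *Cyp2b9* lies at 8.87 to 14.01 in CTRL mice and at 15.04 to 15.45 in HFD mice, and HFD replicate 3 is the highest HFD mouse for the 4 male-biased genes of the lower row.

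Among genes of lipid storage, of 18 genes of lipid droplet proteins and lipases, 4 rose and 0 fell. *Cidec* (chr6:113374693-113374752), which encodes a protein that fuses lipid droplets, had signals of 10.31 to 12.83 (median 12.30) on CTRL diet and 13.50 to 14.72 (median 13.91) on HFD. The groups did not overlap, and the rise was 3.81-fold (log2 fold change 1.93, standard error 0.40, adjusted p = 0.000406). *Plin2*, the main coat protein of hepatocyte lipid droplets, rose from 14.67 ± 0.31 to 15.73 ± 0.19 (SD, n = 6) (log2 fold change 1.01, standard error 0.17, adjusted p = 3.21e-05). *Plin4*, another coat protein, rose by 1.14 (adjusted p = 0.00158). *Cidea*, a relative of *Cidec*, had overlapping groups (log2 fold change 1.29, standard error 0.46, adjusted p = 0.0381). Its call was lost in 16 of 30 alternatives of processing, among them those without CTRL replicate 2, where its log2 fold change was 0.98.

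*Pparg*, which encodes PPARγ, rose by 0.73 (adjusted p = 0.002), and *Mogat1*, its target and an acyltransferase of triglyceride synthesis, rose by 1.48 (adjusted p = 2.37e-05). *Agpat9*, a glycerol-3-phosphate acyltransferase, rose by 0.76 (adjusted p = 0.00595). *Cd36*, a fatty acid translocase, rose from 10.45 ± 0.71 to 11.67 ± 0.23 (SD, n = 6) without overlap (log2 fold change 1.11, standard error 0.23, adjusted p = 0.000456). *Fabp4*, a fatty acid binding protein of adipocytes and macrophages, rose by 1.37 (adjusted p = 0.000325). Of the 12 arrays, that of CTRL replicate 2 had the lowest weight in the fit (0.58) and the lowest share of probes above background (50.1%). CTRL replicates 2 and 6 were the lowest mice for *Cidec*, *Plin2*, *Plin4*, *Mogat1*, *Cd36* and *Fabp4*. When both were left out, a choice made after seeing the data, *Cidec* (1.39), *Plin2*, *Plin4*, *Mogat1*, *Fabp4* and *Cd36* (0.78) were still called. *Cidea*, *Pparg* and *Agpat9* were not, with log2 fold changes of 0.91, 0.53 and 0.45.

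In contrast to *Fabp4*, the related *Fabp5* (chr3:10016185-10016244) fell. It had signals of 12.08 to 13.67 (median 13.003) on CTRL diet and 10.20 to 11.26 (median 10.92) on HFD. The groups did not overlap, and the fall was 4.63-fold (log2 fold change -2.21, standard error 0.27, adjusted p = 1.01e-07). The probe NAP114472-1 gave -2.21, but it shares a run of 50 of 60 bases with the *Fabp5* probe and is not a separate finding. The probe NAP111439-1, which names no gene, gave -2.16 and shares a run of only 8 bases with the *Fabp5* probe. Whether it reads another part of the same transcript was not examined, so it may not be a separate finding either.

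Genes of fatty acid oxidation shifted together by a small amount. All 35 measured genes had a positive log2 fold change, from 0.11 to 0.88 with a median of 0.28. By adjusted p alone 28 of them passed upwards, against 12.4% of all genes, and 5 were called with the fold threshold. *Cpt1a*, the entry step of fatty acids into mitochondria, gave only 0.30 (adjusted p = 0.0115) and was not called. The 5 called genes were the peroxisomal transporter *Abcd2* (0.88), the carnitine octanoyltransferase *Crot* (0.76), the ketone body dehydrogenase *Bdh1* (0.73), the mitochondrial dehydrogenase *Hadh* (0.62) and the peroxisomal thiolase *Acaa1b* (0.60). The last 2 lay close to the fold threshold of 0.585 on the log2 scale and lost the call in 4 and 9 of 30 alternatives. Without CTRL replicates 2 and 6 only 2 of the 35 were called, and *Abcd2* gave 0.56 and lost its call, as it did within washing batch 2.

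All 22 measured genes of a further list, of other PPARα-responsive genes, had a positive log2 fold change, with a median of 0.72, and 11 were called. *Cyp4a14*, a fatty acid hydroxylase, had signals of 5.30 to 8.60 (median 7.52) on CTRL diet and 8.16 to 9.21 (median 8.93) on HFD. The groups overlapped through CTRL replicate 1, the highest of its diet (log2 fold change 1.56, standard error 0.40, adjusted p = 0.00337). *Acot2*, a mitochondrial thioesterase, rose by 1.39 (adjusted p = 3.44e-05), and *Pdk4*, an inhibitor of pyruvate oxidation, rose by 1.37 (adjusted p = 0.00693). *Aldh3a2*, which oxidizes fatty aldehydes, rose from 13.70 ± 0.31 to 14.82 ± 0.11 (SD, n = 6) (log2 fold change 1.05, standard error 0.13, adjusted p = 1.27e-07).

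Genes of de novo lipogenesis did not move one way, with 2 of 23 higher, 3 lower and a median of -0.01. *Acly*, which makes cytosolic acetyl-CoA, rose by 0.76 (adjusted p = 0.000249), and *Elovl5*, an elongase of polyunsaturated fatty acids, rose by 0.94 (adjusted p = 6.18e-05). *Srebf1*, which encodes SREBP-1, fell by 0.65 (adjusted p = 0.0141), and *Aacs*, which activates acetoacetate, fell by 0.67 (adjusted p = 0.012). *Pnpla3*, a lipid droplet hydrolase and SREBP-1 target, gave -1.01 (adjusted p = 0.0141), but -0.04 within the first and -2.01 within the second washing batch of the arrays. Of 25 cholesterol genes, only *Hmgcs1*, the cytosolic HMG-CoA synthase, was called (log2 fold change 1.20, standard error 0.17, adjusted p = 9.38e-07), and its other probe gave 0.56 and was not called.

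Of 26 measured genes of bile acid synthesis and transport, 3 rose and 2 fell, with a median of 0.12. *Abcb4* and *Abcg5*, which encode exporters of the bile canaliculus, differed in direction. *Abcb4*, which exports phospholipid, had signals of 14.20 to 14.59 (median 14.44) on CTRL diet and 15.15 to 15.29 (median 15.17) on HFD. Both groups were narrow and clearly apart (log2 fold change 0.74, standard error 0.08, adjusted p = 2.31e-09). *Abcg5*, a subunit of the sterol exporter, fell by 0.60 (adjusted p = 0.00189), close to the fold threshold. *Cyp2c70*, which makes the muricholic acids of mice, fell from 15.57 ± 0.45 to 14.09 ± 0.37 (SD, n = 6) without overlap (log2 fold change -1.36, standard error 0.28, adjusted p = 0.00035).

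3 FOXO1 targets that insulin represses, *Igfbp1*, *Pck1* and *G6pc*, were higher on HFD in these fed mice. Of 25 measured genes of insulin, IGF and FOXO signalling, 2 rose and 2 fell, with a median of -0.03. Of 26 genes of gluconeogenesis, glycolysis and glycogen, 4 rose and 0 fell, with a median of 0.12. *Igfbp1* (chr11:7102442-7102501), which encodes an IGF binding protein, had signals of 9.46 to 13.93 (median 11.21) on CTRL diet and 12.61 to 15.07 (median 14.21) on HFD. The groups overlapped through CTRL replicate 2, yet HFD was higher on all 6 slides, and the rise was 8.24-fold (log2 fold change 3.04, standard error 0.43, adjusted p = 1.37e-06). *Pck1* and *G6pc*, the first and last enzymes of gluconeogenesis, rose by 0.89 (adjusted p = 0.00102) and 0.83 (adjusted p = 0.00235), and both had overlapping groups. *Pck1* had an adjusted p of 0.0594 when only the 12 arrays were fitted. Without CTRL replicates 2 and 6, a choice made after seeing the data, *Igfbp1* gave 3.40, *Pck1* 1.21 and *G6pc* 0.85. *Irs2*, an insulin receptor substrate and FOXO1 target, was not called (log2 fold change 0.30, standard error 0.25, adjusted p = 0.427). Its CTRL replicate 2 stood apart at 11.17, and without CTRL replicates 2 and 6 it gave 0.60 (adjusted p = 0.0765). *Igfbp2*, another IGF binding protein, fell by 0.80 (adjusted p = 0.000827).

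In the iron list, *Hamp* (chr7:31727490-31727549), which encodes the iron hormone hepcidin, had signals of 15.41 to 16.66 (median 15.93) on CTRL diet and 11.14 to 13.82 (median 12.69) on HFD. The groups did not overlap (log2 fold change -3.37, standard error 1.11, adjusted p = 0.0236), but the adjusted p exceeded 0.05 in 8 of 30 alternatives. *Bmp6*, a ligand from endothelial cells that drives *Hamp*, had signals of 6.64 to 7.18 (median 6.87) on CTRL diet and 5.98 to 6.40 (median 6.12) on HFD and no overlap (log2 fold change -0.76, standard error 0.11, adjusted p = 1.11e-06). *Id1*, a BMP target, fell by 1.28 (adjusted p = 0.00046), and *Smad7*, a feedback inhibitor, fell by 0.62 (adjusted p = 0.000933), a call that was lost in 6 of 30 alternatives. *Tfrc*, the transferrin receptor, whose mRNA is stabilized in iron-poor cells, rose from 8.18 ± 0.36 to 9.70 ± 0.33 (SD, n = 6) without overlap (log2 fold change 1.47, standard error 0.28, adjusted p = 0.000118). These were the 5 called genes of the 21 in the list.

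**Figure D2:**
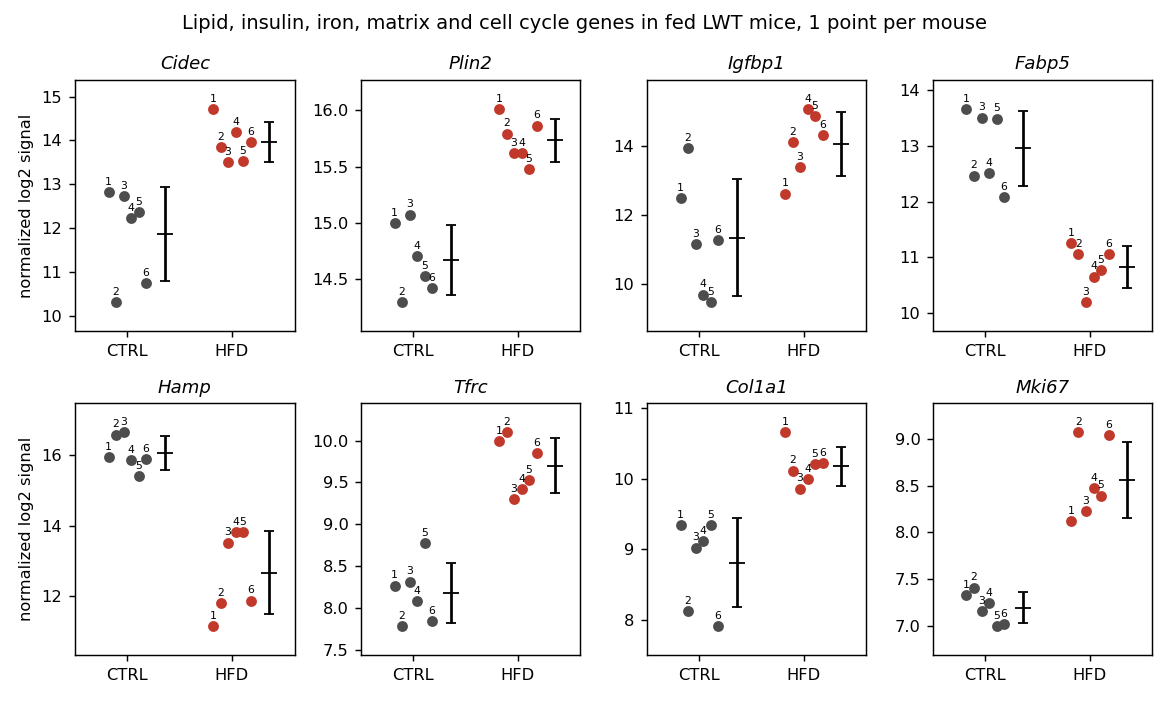
Normalized log2 signal of 8 genes of lipid storage, insulin action, iron, matrix and the cell cycle in each of 6 CTRL and 6 HFD fed LWT mice (points, numbered by replicate), with the group mean and SD to their right. Of the 8 genes drawn, *Igfbp1* is the one whose groups overlap.

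Genes of dividing cells rose. Of 32 measured cell cycle genes, 22 rose and 1 fell, with a median of 0.83, and the diets did not overlap for 19 of them. Among the 24 that were above background on all 12 arrays, 16 were called and the median was 0.84. *Mki67* (chr7:142881591-142881650), the proliferation marker whose promoter is printed above, had signals of 6.999 to 7.41 (median 7.20) on CTRL diet and 8.12 to 9.07 (median 8.44) on HFD. The groups were apart (log2 fold change 1.45, standard error 0.15, adjusted p = 2.39e-09). *Cdc20*, an activator of the anaphase-promoting complex, had signals of 6.27 to 7.16 (median 6.63) on CTRL diet and 7.49 to 8.75 (median 7.95) on HFD, also apart (log2 fold change 1.497, standard error 0.19, adjusted p = 1.16e-07). *Prc1*, a protein of the mitotic spindle, rose by 1.47 (adjusted p = 1.17e-08), *Top2a*, topoisomerase IIα, by 1.36 (adjusted p = 1.17e-08) and *Ccna2*, cyclin A2, by 1.14 (adjusted p = 1.93e-07). The member that fell was *Tk1*, a thymidine kinase (log2 fold change -0.61, standard error 0.13, adjusted p = 0.000579), named after its value was seen. HFD replicates 2 and 6 were the highest HFD mice for *Mki67*, *Cdc20*, *Prc1*, *Top2a* and *Ccna2*.

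Of 32 genes of the extracellular matrix, 10 rose and 0 fell, with a median of 0.41. Among the 28 above background on all 12 arrays, 8 were called. *Col1a1*, a chain of collagen I, rose from 8.81 ± 0.63 to 10.17 ± 0.27 (SD, n = 6) without overlap (log2 fold change 1.28, standard error 0.25, adjusted p = 0.000162), and *Col1a2*, its partner chain, rose by 0.97 (adjusted p = 0.000126) on one probe and gave 0.42 on another that was not called. *Col3a1* gave 1.13, but its 3 probes ranged from -0.02 to 1.13. *Thbs1*, thrombospondin-1, rose by 1.06 (adjusted p = 1.99e-07), but its 2 probes gave 0.21 and 1.06 and only the second was called. Of 11 markers of hepatic stellate cells, which make collagen, 3 rose, all of them collagen genes of the matrix list. The summed level of these markers was 14.71 to 15.22 on CTRL diet and 15.01 to 15.78 on HFD, and their part in the matrix change was not tested. A summed level follows its brightest probes and does not show how each marker moved. Without CTRL replicates 2 and 6, *Col1a1* gave 0.95 and was still called, as were 7 genes of the list in all.

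Of 10 markers of lipid-associated macrophages, 7 rose and 1 fell, with a median of 0.68. *Trem2*, a lipid receptor, rose by 0.93 (adjusted p = 0.0104), *Gpnmb*, a lysosomal glycoprotein, by 0.77 (adjusted p = 0.00217) from a signal above background on 3 of 6 CTRL arrays (0.52 to 1.62 over the alternatives), *Cd63*, a tetraspanin, by 0.81 (adjusted p = 0.000452), and *Spp1*, osteopontin, by 0.66 (adjusted p = 0.00428). The member that fell was *Fabp5*. The summed level of the 10 markers was 13.33 to 14.40 on CTRL diet and 13.01 to 14.49 on HFD. This sum follows the brightest probes and includes *Fabp5*, so it does not show how the 7 that rose moved. Of the 10 markers, 8 were above background on all 12 arrays. Of 13 markers of Kupffer cells and macrophages, 0 were called and 2 had an unadjusted p under 0.05. Without CTRL replicates 2 and 6, only 3 of the 10 markers were called. *Trem2* then gave 0.61 (adjusted p = 0.122), *Gpnmb* 0.58 and *Spp1* 0.45 (adjusted p = 0.0736), and none of these was called.

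Of 23 chemokine and inflammatory genes, 3 rose. *Ccl2*, which attracts monocytes, rose from 7.67 ± 0.52 to 9.25 ± 0.44 (SD, n = 6) without overlap (log2 fold change 1.58, standard error 0.22, adjusted p = 8.94e-07), and *Ccl4* and *Cxcl14*, other chemokines, rose by 0.83 and 0.76. In the interferon list *Cxcl10*, a chemokine for T cells, rose by 1.03 (adjusted p = 0.000538). Acute phase and complement genes were split, with 5 of 41 higher and 5 lower. *Orm3*, an orosomucoid, rose by 1.64 (adjusted p = 4.84e-06) and *Lcn2*, lipocalin-2, by 1.58 (adjusted p = 0.000237). *C8b*, of the membrane attack complex, fell from 13.69 ± 0.39 to 11.70 ± 0.32 (SD, n = 6) (log2 fold change -1.94, standard error 0.17, adjusted p = 5.59e-11). *S100a8* and *S100a9*, calcium-binding proteins of neutrophils, rose by 0.84 and 0.91 (adjusted p = 0.0235 and 0.027). HFD replicate 1 was the highest for both, and without it they gave 0.62 and 0.68 and were not called. The other 5 of 7 neutrophil markers were not called, and the summed level was 14.76 to 14.90 on CTRL diet and 14.73 to 15.06 on HFD. This sum, too, follows its brightest probes.

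Of 30 genes of glutathione metabolism and the NRF2 response, 6 rose and 1 fell, with a median of 0.42, which was 0.45 with 14 called within washing batch 1 and 0.21 with 6 called within batch 2. *Gstm2*, a glutathione transferase, rose from 12.67 ± 0.20 to 14.11 ± 0.31 (SD, n = 6) without overlap (log2 fold change 1.44, standard error 0.16, adjusted p = 1.17e-08). *Cbr3*, a carbonyl reductase, rose by 1.35 (adjusted p = 1.11e-07) and *Gsta2*, another transferase, by 1.04 (adjusted p = 0.0109). Within the batches *Gsta2* gave 1.61 and 0.54, and it was not called in the second (adjusted p = 0.556). The member that fell was *Gstp1*, which is male-biased (log2 fold change -0.99, standard error 0.23, adjusted p = 0.00154) and is named after its value was seen. Of 24 genes of the ATF4 stress response, 7 rose, among them the transcription factor *Atf3* by 1.05 (adjusted p = 0.000244), the secreted factor *Gdf15* by 1.07 (adjusted p = 0.0119) and the AKT inhibitor *Trib3* by 0.73 (adjusted p = 0.000841). Of 27 genes of endoplasmic reticulum chaperones and the unfolded protein response, 0 were called in limma, and 6 had an unadjusted p under 0.05.

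Ribosomal protein genes shifted the other way by a small amount. All 76 had a negative log2 fold change, from -0.37 to -0.04 with a median of -0.16. By adjusted p alone 58 of them passed downwards, against 11.6% of all genes, and 0 exceeded the fold threshold. All 76 stayed negative under each other scaling, background and filter tried. For example, *Rpl10* had signals of 17.26 to 17.40 (median 17.32) on CTRL diet and 17.00 to 17.22 (median 17.14) on HFD, which did not overlap. In contrast, the 75 subunits of oxidative phosphorylation had no fixed direction, since 51 were higher here but 15 to 58 across the alternatives.

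**Figure D3:**
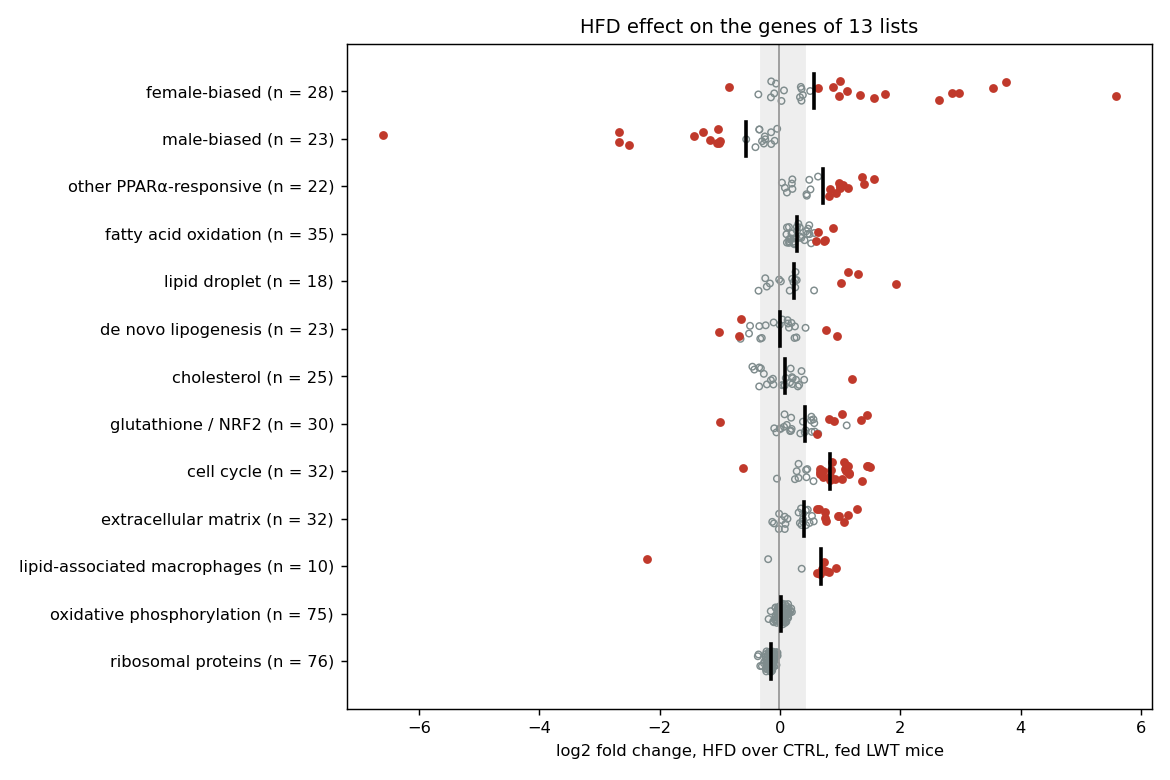
Log2 fold change of HFD over CTRL in fed LWT mice for the measured genes of 13 lists (points, red where called and open where not), with the median of each list (black bar). The grey band holds the middle 90% of all genes (-0.32 to 0.42), and the 35 fatty acid oxidation genes lie above 0 and the 76 ribosomal protein genes below it.

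Other genes with the largest changes came from no list. *Ly6d*, a small membrane-anchored surface antigen, rose from 9.02 ± 0.93 to 12.27 ± 0.43 (SD, n = 6) (log2 fold change 3.16, standard error 0.34, adjusted p = 5.66e-09). *Anxa2*, annexin A2, had signals of 10.93 to 12.14 (median 11.56) on CTRL diet and 13.15 to 14.10 (median 13.76) on HFD. The groups were far apart (log2 fold change 2.05, standard error 0.14, adjusted p = 8.17e-15). *Gprc5b*, an orphan receptor, rose by 2.17 (adjusted p = 2.20e-08) and *Lamb3*, a laminin chain, by 1.98 (adjusted p = 7.13e-07). *Sdcbp2*, a syntenin, was higher on HFD but well above background on 2 of 6 CTRL arrays, so that the size of its change is not exact (log2 fold change 2.24, and 1.597 to 3.577 over the alternatives). Among the falls, *Gm11128* had signals of 8.39 to 8.87 (median 8.73) on CTRL diet and 6.46 to 6.91 (median 6.68) on HFD, with no overlap (log2 fold change -2.05, standard error 0.13, adjusted p = 1.92e-15). *Tff3*, a trefoil factor, fell by 2.26 (adjusted p = 0.00197).

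Some changed genes were neighbours, which was looked for after their values were seen. *Onecut1*, which encodes the hepatocyte transcription factor HNF-6, had signals of 12.84 to 14.14 (median 13.40) on CTRL diet and 10.36 to 12.09 (median 11.14) on HFD and did not overlap (log2 fold change -2.13, standard error 0.48, adjusted p = 0.000962). The probe of *Gm16551* lies 37.2 kb away on chromosome 9, and it fell by 2.15 (adjusted p = 1.04e-08). *Serpina4-ps1*, a serpin pseudogene, fell by 3.68 (adjusted p = 4.67e-06), and *Serpina9*, a protease inhibitor 84.6 kb away on chromosome 12, fell by 2.16 (adjusted p = 1.58e-05). *Crot* and *Abcb4*, 7.32 kb apart on chromosome 5, both rose. A locus on chromosome 9 that the array names only by its position (probe at chr9:78116834-78116893) rose by 2.23 (adjusted p = 1.45e-05), 62.0 kb from *Gsta2*. It gave 3.32 within washing batch 1 and 1.24 within batch 2, where it was not called (adjusted p = 0.263). Neighbours did not always move together, since *Cyp4a12b* fell and *Cyp4a14*, 57.0 kb away on chromosome 4, rose.

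Within each washing batch, which holds 3 mice per group, all 101 named genes that were called kept their direction, and 76 and 57 of them were called by the probe brightest in that batch. The kept direction is no independent support, since these 101 genes were called on the same arrays. The log2 fold change of the probe reported here moved by over 1.5 times for 8 and 15 of them. Beside *Pnpla3*, *Gsta2* and *Cbr3*, these were *Aacs*, *Ntrk2*, *Pck1* and *Srebf1*, which gave less and were not called in batch 1. Those that gave less and were not called in batch 2 were *Acaa1b*, *Acly*, *Cd63*, *Cidea*, *Cyp7b1*, *Fgf21*, *Igfbp2*, *Pdk4*, *Trem2* and the chromosome 9 locus. *S100a8* and *S100a9* gave more in batch 1 and less in batch 2 and were called in neither. *Cbr3* (0.77 in batch 2) was still called.

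Of the 101 genes, 41 had several probes, and for 11 of these a probe was not called. Beside *Hmgcs1*, *Col1a2*, *Col3a1* and *Thbs1*, these were *Acly* (lowest probe 0.47), *Elovl5* (0.35), *Crot* (0.57), *Ccl4* (0.56), *Tk1* (-0.58 on its weakest probe), *Smad7* (-0.41) and *Socs2* (0.21). The probes of *Col3a1* and *Socs2* did not share a sign.

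The effect of HFD in fasted LWT mice shared part of this. In fasted mice 689 of the 766 genes kept their sign and 292 were called too, where 2.83% of all genes were called. The share of all genes that kept their sign was not computed. The difference between the HFD effects in fed and fasted mice was itself called for 183 of all genes (0.893%) and for 103 of the 766. The 766 were chosen for their effect in fed LWT mice, which enters this difference, so the count among them is partly built in. The difference was called for 9 of the 22 other PPARα-responsive genes and for 5 of the 35 fatty acid oxidation genes, each time with the more positive effect in fed mice (0.596% of all genes, against 0.298% with the more negative one). It was also called for 4 of the 23 genes of de novo lipogenesis, 2 in each direction. The medians of the PPARα-responsive and oxidation lists were -0.20 and -0.01 in fasted mice, against 0.72 and 0.28 in fed mice. Within the washing batches, 13 and 17 genes passed this difference.

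*Igfbp1*, *Fgf21* and *Lamb3* differed clearly by nutritional state. The HFD effect on *Igfbp1* was 3.04 in fed and -0.13 in fasted mice (difference 3.17, adjusted p = 0.0026). The mean signal of *Igfbp1* was 14.58 ± 0.22 in fasted CTRL mice, against 11.33 in fed CTRL and 14.06 in fed HFD mice. For *Fgf21*, a hormone of the liver under PPARα and ATF4, it was 1.14 and -1.22 (difference 2.36, adjusted p = 1.94e-05). For *Lamb3* it was 1.98 and -0.42 (difference 2.40, adjusted p = 0.000268). The difference was also called for *Pck1* (0.89 and -0.35), *G6pc* (0.83 and -0.60), *Plin2* (1.01 and 0.00) and *Abcb4* (0.74 and -0.05), and in the other direction for *Onecut1* (-2.13 and 0.42), *Cyp2c70* (-1.36 and 0.63) and *Fabp5* (-2.21 and -0.25). For *Cyp2b9* (3.57 in fasted mice), *Cidec* (1.36) and *Hsd3b5* (-3.87) it did not pass. *Cyp2b13* was well above background on 2 of 6 CTRL arrays of fasted mice, so no effect is given for it there.

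The probe of *Pik3ca*, which encodes p110α, gave 12.89 ± 0.11 in CTRL LWT and 13.23 ± 0.11 in CTRL LKO mice (SD, n = 6). It was thus no lower in the mice labelled LKO, and where it lies relative to the deleted exons was not examined, so it does not check the genotype. In fed LKO mice, 662 of the 766 kept their sign and 204 were called, where 2.33% of all genes were called. The share of all genes that kept their sign was again not computed. The difference between the genotypes in the HFD effect was called for 283 of all genes (1.38%), 64 with the more positive (0.312%) and 219 with the more negative effect (1.07%) in LKO mice, and for 166 of the 766. The count among the 766 is again partly built in, since the LWT effect that chose them enters this difference. The difference was called for 8 of the 23 genes of de novo lipogenesis, whose median was -0.73 in LKO and -0.01 in LWT mice, and for 8 of the 32 cell cycle genes. It was also called for 4 of the 25 cholesterol genes, 4 of the 28 interferon-stimulated genes, 4 of the 30 glutathione and NRF2 genes and 3 of the 32 matrix genes. In these 6 lists each called gene had the more negative effect in LKO mice. In the list of fatty acid uptake and binding, 3 of 16 were called, all with the more positive effect in LKO mice. Of the 35 fatty acid oxidation genes 0 were called. For *Igfbp1* the effect was -0.29 in LKO mice (difference -3.33, adjusted p = 0.00215), where the signal of *Igfbp1* was already 14.47 ± 0.67 on CTRL diet. For *Gstm2* it was 1.44 in LWT and -0.32 in LKO mice (difference -1.76, adjusted p = 3.77e-05). *Mki67* gave 1.45 and 0.49 (difference -0.95, adjusted p = 0.0139). *Fabp5* gave -2.21 and 0.57 (difference 2.78, adjusted p = 5.98e-05), and its signal on CTRL diet was 12.96 in LWT and 10.97 in LKO mice. *Sdcbp2* was well above background on 1 of 6 HFD and 1 of 6 CTRL arrays of LKO mice, so no effect is given for it there, nor for *Cyp2b13*, which was well above background on 2 of 6 CTRL arrays of LKO mice. For *Cyp2b9* (3.29 in LKO mice), *Cidec* (1.40) and *Hsd3b5* (-3.40) the difference did not pass. Within the washing batches, 219 and 4 genes passed the genotype difference.

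**Figure D4:**
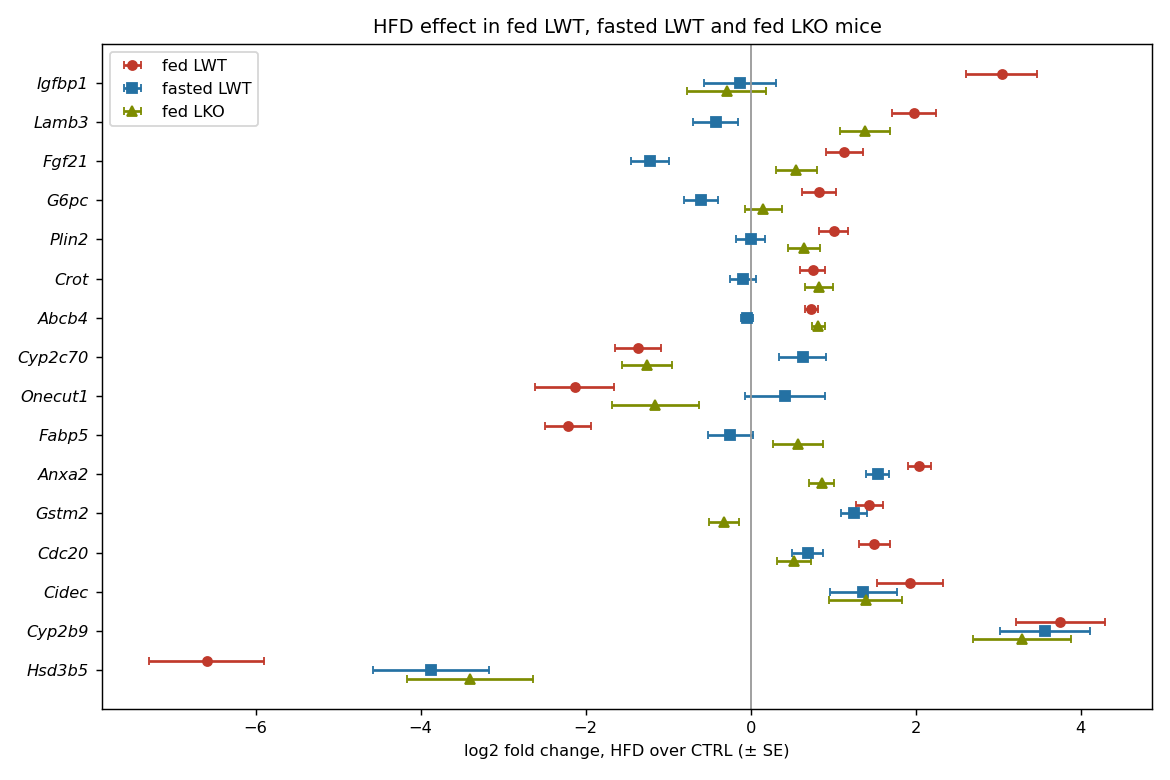
Log2 fold change of HFD over CTRL (points, with the standard error as bars) for 16 named genes in fed LWT, fasted LWT and fed LKO mice, each from 6 mice per diet. *Igfbp1* lies at 3.04 in fed LWT mice and at -0.13 and -0.29 in the others, while *Cyp2b9* lies at 3.75, 3.57 and 3.29.

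Of 10 markers of T, B and NK cells, 10 of sinusoidal endothelial cells and 6 of red blood cells, 0 were called in limma, while 2, 1 and 0 had an unadjusted p under 0.05. Of 6 cholangiocyte markers 1 was called, *Spp1* (0.66), which is also in the list of lipid-associated macrophages. Of 4 adipocyte markers *Cfd*, adipsin, rose (log2 fold change 1.77, standard error 0.61, adjusted p = 0.0318), with signals of 8.62 to 13.37 (median 11.69) on CTRL diet and 13.07 to 13.58 (median 13.28) on HFD. CTRL replicates 2 and 6 had the lowest signals, and without them *Cfd* gave 0.91 (adjusted p = 0.326). Of 10 hepatocyte markers, which were above background on all 12 arrays, *Cps1*, the first enzyme of the urea cycle, was called, and it fell from 14.42 ± 0.34 to 13.55 ± 0.22 (SD, n = 6) (log2 fold change -0.82, standard error 0.12, adjusted p = 2.92e-06).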

How the data were processed

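RNA of 48 mouse livers had been labelled with Cy3 and hybridized to Agilent SurePrint G3 mouse arrays, 1 array per mouse. Per the file headers, the deposited spot intensity values were extracted by the authors with Agilent Feature Extraction 10.10.1.1, and probe positions are those of mm9. The authors also deposited log2 values after a filter, correction for the washing bath and quantile normalization, which served as an alternative. Here the median signal intensity was log2 transformed without background subtraction, outlier spots were left out and spots of a probe averaged. Probes well above background on at least 5 of 6 arrays of any group were kept (30793 of 56605, for 20486 genes). The washing batch was removed, arrays were quantile normalized, and the 8 groups were fitted with array weights in limma 3.58.1 (R 4.3.3) on all 48 arrays. P-values were Benjamini-Hochberg adjusted over all probes kept, and the brightest probe stood for a gene. 0 columns of per-sample values were left unused.

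The groups follow the labels, and the 6 replicates per group are separate mice. The HFD effect in fed LWT mice was compared with that in fasted LWT and fed LKO mice through the difference of the contrasts. These contrasts share arrays with it. The procedure was tested on simulated data with known changes. The members and lists were chosen with earlier results of these data known, so a list's count is a description and no test. Genes named were the 12 largest changes per direction among called genes without overlap and well above background in the higher group, up to 5 called members per list, and genes of these pathways picked whatever their result. Others are said to be named after their values were seen. Alternatives were another signal, background correction, scaling, filter, batch or slide term, replicate block, weights, samples, probe rule and threshold, and each array left out. Promoters came from RefSeq (GRCm38.p6), matched by symbol for 11677 of 20486 genes. Intensities carry no read depth, and the number of arrays limits the precision.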

Additional observations from a re-analysis of the deposited data

Results flagged for a closer look

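In 9 of the 212 groups of 6 mice examined for the named genes, a single mouse lay apart from the others by Dixon's criterion, and chance alone gives this in about 1 of 20 groups. These normalized log2 signals were *Mogat1* in CTRL replicate 2 (8.02), *Aldh3a2* in HFD replicate 1 (15.03), *Abcb4* in HFD replicate 3 (15.29), *Igfbp2* in HFD replicate 1 (11.42), *Smad7* in HFD replicate 1 (7.92), *Lcn2* in HFD replicate 3 (11.85), *S100a8* in HFD replicate 1 (9.91), *S100a9* in HFD replicate 1 (11.47) and *Irs2* in CTRL replicate 2 (11.17). HFD replicate 1 stood apart for several of them, among which *S100a8* and *S100a9* are neighbours.

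The HFD effect differed between fed and fasted LWT mice by the test of that difference in limma for 27 of the named genes or probes. On the log2 scale, the effect in fed mice minus that in fasted mice was 1.00 for *Plin2*, 0.84 for *Crot*, 0.60 for *Bdh1*, 0.67 for *Acaa1b*, 1.98 for *Cyp4a14*, 2.36 for *Fgf21*, 0.84 for *Acly*, 0.96 for *Elovl5*, 0.78 for *Abcb4*, 3.17 for *Igfbp1*, 1.23 for *Pck1*, 1.43 for *G6pc*, 2.40 for *Lamb3*, 0.82 for *Trib3* and 0.85 for *Prc1*. It was -1.18 for *C6*, -1.97 for *Fabp5*, -1.99 for NAP114472-1, -1.96 for NAP111439-1, -1.12 for *Srebf1*, -1.08 for *Aacs*, -1.99 for *Cyp2c70*, -1.05 for *C8b*, -2.55 for *Onecut1*, -3.43 for *Serpina4-ps1*, -1.15 for *Gm11128* and -1.50 for *Ntrk2*. Of these, the *Fabp5* and NAP114472-1 probes share most of their sequence, and whether NAP111439-1 reads the same transcript was not examined. Whether the fasted mice differed in another way was not tested.

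The HFD effect differed between fed LKO and fed LWT mice in the same test for 29 named genes or probes. The effect in LKO mice minus that in LWT mice was 1.06 for *Mup5*, 1.42 for *Mup11*, 1.25 for *Cd36*, 2.78 for *Fabp5*, 2.78 for NAP114472-1, 2.78 for NAP111439-1, 2.00 for *Agpat9*, 1.13 for *Igfbp2*, 1.06 for *C8b*, 1.39 for *Gm11128* and 0.68 for *Cps1*. It was -1.25 for *Acly*, -1.15 for *Aacs*, -3.33 for *Igfbp1*, -1.76 for *Gstm2*, -1.43 for *Cbr3*, -1.75 for *Gsta2*, -1.89 for the chromosome 9 locus, -1.24 for *Ccl2*, -1.28 for *Cxcl10*, -0.98 for *Col1a2*, -0.92 for *Thbs1*, -0.97 for *Cdc20*, -0.95 for *Mki67*, -0.94 for *Top2a*, -2.25 for *Sdcbp2*, -1.61 for *Gprc5b*, -1.18 for *Anxa2* and -0.87 for *Ccl4*. *Sdcbp2* was not well above background on most LKO arrays, so its value is no exact difference. The LWT effect enters both differences, so they are not independent of each other.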

How the results depend on the processing

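The count of 766 genes called for the HFD effect was 1197 (776 higher, 421 lower) with the processed signal scaled to the 75th percentile, 408 within washing batch 2, 4915 without the fold-change threshold and 225 with a fold change over 2. Leaving out 1 of the 12 arrays gave 629 to 882, the share of probes above background then differed by 0.882 to 2.02 percentage points, and every other alternative stayed within 1.5 times. The count of 183 for the difference between fed and fasted mice was 111 with no filter on dim probes, 117 without array weights, 485 without the fold-change threshold, 60 with a fold change over 2, 386 with an unadjusted p, 13 within washing batch 1 and 17 within batch 2, and 140 to 213 with 1 array left out. The count of 283 for the difference between genotypes was 146 with no filter, 167 without correction for the washing batch, 160 without array weights, 604 without the fold-change threshold, 88 with a fold change over 2, 629 with an unadjusted p and 4 within washing batch 2. It was 181 to 406 with 1 array left out, the lowest without HFD replicate 6. Fewer arrays enter the fits within batches, and the cause of the other shifts was not tested. Of 101 named genes that were called, all 101 kept their direction in up to 30 alternatives, and 46 were called in all of them. *Bcl6*, which was not called, changed sign to -0.06 with the median over its probes. The replicate numbers of the labels do not pair the mice, since the deviations of same-numbered HFD and CTRL mice correlated at -0.31 to 0.18. With the replicate block 704 genes were called for the HFD effect, 149 for the difference by state and 202 for that by genotype. With both CTRL replicates 2 and 6 left out, an alternative chosen after seeing the data, 591 genes were called. The number of arrays, 6 per group, limits the precision.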
